A study of Mus musculus with 11 samples.

Results

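The proteasome genes examined here are the 43 genes of the deposited table whose symbols begin with Psma, Psmb, Psmc, Psmd or Psme followed by a number, out of 18804 genes in all. Of the 43, the 5 immune genes Psmb8, Psmb9, Psmb10, Psme1 and Psme2 were set against the other 38. Gene expression was measured by RNA sequencing of the synovial membrane, the lining of the joint, from DBA/1 mice, an inbred strain that develops collagen-induced arthritis (CIA) after immunisation with collagen. The 11 libraries comprised 3 of sham mice and 3 of CIA mice on a regular diet, and 2 of sham mice and 3 of CIA mice on a high-fat diet. Every group was of the DBA/1 strain, and CIA and sham are given in the genotype label although they name an induced disease and its control. The labels give no age. They carry letters a to c for the replicates but do not say that these were separate mice, so p-values measure the spread between these samples, which may in part be technical. The growth notes name a regular diet for all 11 samples, in conflict with the treatment labels of the 5 high-fat samples. Groups follow the treatment labels.

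The proteasome is the protease that degrades ubiquitin-tagged proteins. Its barrel-shaped core has outer rings of alpha subunits (Psma genes) and inner rings of beta subunits (Psmb genes), and 3 beta subunits cut peptides: Psmb5 after hydrophobic, Psmb6 after acidic and Psmb7 after basic residues. In the immunoproteasome, which interferon-gamma induces and which leukocytes hold at high levels, Psmb8, Psmb9 and Psmb10 take the places of Psmb5, Psmb6 and Psmb7, and the peptides made suit MHC class I molecules better. A regulatory particle caps the core, with ATPases that unfold substrates (Psmc genes) and non-ATPase subunits (most Psmd genes), among them those that bind and strip ubiquitin. Psme1 and Psme2 form an alternative cap that interferon-gamma also induces, while Psme3 and Psme4 form caps of their own. In arthritic joints this system is of interest because it supplies peptides to T cells and degrades the inhibitor of NF-kappa-B.

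Psmb8 and Psmb9 lie together on chromosome 17, inside the MHC, beside the peptide transporter genes. In RefSeq's GRCm38.p6 annotation Psmb9 spans chr17:34182030-34187330 and Tap1 chr17:34187556-34197225. Psmb8 spans chr17:34198195-34201454, and Tap2 chr17:34204479-34216321. Psme1 (chr14:55578494-55581527) and Psme2 (chr14:55587440-55591101) neighbour each other, Psmb10 is at chr8:105935728-105938392 and Psmb5 at chr14:54614120-54617995. Sequence upstream of 4 members is shown, because they differ in role: an immune subunit, the immune subunit that shares its upstream bases with Tap1, the constitutive counterpart of Psmb8, and the activator that was higher in CIA. Capitals mark matches to the motifs searched. The windows, from RefSeq (GRCm38.p6), read 5′ to 3′ towards the gene and end at its start. They are chr17:34197945-34198194 on the plus strand for Psmb8, chr17:34187331-34187555 on the minus strand for Psmb9 (all bases between it and Tap1), chr14:54617996-54618245 on the minus strand for Psmb5 and chr11:30771525-30771774 on the plus strand for Psme4.
Psmb8: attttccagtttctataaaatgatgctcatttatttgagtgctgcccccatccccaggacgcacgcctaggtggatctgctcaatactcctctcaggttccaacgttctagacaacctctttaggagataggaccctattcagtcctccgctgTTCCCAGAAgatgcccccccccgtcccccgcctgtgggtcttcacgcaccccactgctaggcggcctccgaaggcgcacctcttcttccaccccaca
Psmb9: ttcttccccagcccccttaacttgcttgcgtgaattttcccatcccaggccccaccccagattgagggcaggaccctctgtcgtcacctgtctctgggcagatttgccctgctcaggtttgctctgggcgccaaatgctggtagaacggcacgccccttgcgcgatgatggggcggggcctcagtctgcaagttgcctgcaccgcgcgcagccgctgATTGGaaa
Psmb5: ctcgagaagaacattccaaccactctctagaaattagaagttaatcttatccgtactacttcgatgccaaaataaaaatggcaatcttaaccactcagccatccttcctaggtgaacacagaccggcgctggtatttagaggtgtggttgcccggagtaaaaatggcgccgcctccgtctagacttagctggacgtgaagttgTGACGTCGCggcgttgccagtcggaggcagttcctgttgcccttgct
Psme4: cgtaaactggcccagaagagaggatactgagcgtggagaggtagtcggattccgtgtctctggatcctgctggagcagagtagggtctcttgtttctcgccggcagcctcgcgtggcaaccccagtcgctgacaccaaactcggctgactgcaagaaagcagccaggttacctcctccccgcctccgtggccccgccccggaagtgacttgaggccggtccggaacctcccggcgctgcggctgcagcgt

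In Psmb8 the capitals are a gamma-activated site, a sequence known from interferon-gamma response genes. In Psmb9 they are a CCAAT box read on the other strand, in Psmb5 the core of an antioxidant response element, the kind of sequence bound by NFE2L1 and NFE2L2, and Psme4 holds none of the 5 motifs. Over all 32851 promoters of the table, 250 bases long and read on both strands, TTCNNNGAA (gamma-activated site) was found in 7.02%, TGACNNNGC (antioxidant response element core) in 10.2% and CCAAT in 33.8%. Of the 36 members with a promoter in the table, Psmb8 alone held the gamma-activated site. The antioxidant core was found in 5 (Psmb5, Psmb6, Psmc6, Psmd12 and Psmd9) and CCAAT in 14. The core of the interferon-stimulated response element (GAAA, any 2 bases, GAAA; in 2.98% of all promoters) was found in Psmb3, Psmd4 and Psmd9 and in no immune gene, and the NF-kappa-B site (GGGA, any base, TTTCC; in 0.356%) in none. In the sequences shown no matches overlap, and a match describes letters only.

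Total counts were 13677638 to 17631167 per library. Some libraries stood apart. High-fat CIA replicate a lay at 121.6 on the leading principal component of log2 CPM (counts relative to library totals scaled by TMM, a normalisation for composition), which held 53.7% of the variance, against 71.7 and 50.4 for replicates b and c. Regular-diet CIA replicate b (64.7) lay with the high-fat CIA libraries, not with replicates a and c of its own group (-24.4 and -40.6). Transcript length also moved with arthritis: genes were put into 8 classes of equal size by effective length (the length over which a fragment can start). The median log2 fold change of CIA against sham over both diets ran from -0.43 in the shortest class (up to 1086 bases) through every class upward to 0.42 in the longest (5631 bases or more). Among single libraries, the shortest class lay 1.08 log2 units above the longest in regular-diet sham replicate a and 0.85 below it in high-fat CIA replicate b. Most proteasome genes are short: of the 42 tested, 22 were in the shortest class and 12 in the next, with a median effective length of 1076 bases. Medians of the length class are given beside the members called and the immune genes, and values after a correction for effective length beside the comparisons.

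The synovial membrane expressed the constitutive and the immune proteasome side by side. On the TPM scale, which is corrected for length, mean levels over the 11 libraries ran from 15.8 for Psmd9 to 312 for Psmb3 in all but 2 members. The median of the members' mean TPM was 223 for the alpha ring, 234 for the beta ring, 141 for the ATPases and 96.6 for the non-ATPase subunits. Psmb3, a structural beta subunit, had 357, 314 and 339 TPM in replicates a, b and c of regular-diet sham, 275, 411 and 260 in regular-diet CIA, 296 and 303 in high-fat sham, and 345, 242 and 294 in high-fat CIA, so its groups overlapped. Among the immune genes, mean TPM was 301 for Psme2 (rank 2 of the 43), 242 for Psme1 (rank 6), 184 for Psmb8 (rank 14), 138 for Psmb9 (rank 23) and 80.5 for Psmb10 (rank 33). Psmb5, Psmb6 and Psmb7 had mean TPM of 208, 201 and 284. The larger activators were scarcer in TPM, at 51.9 for Psme3 and 25.3 for Psme4.

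Members known from other organs were near 0. Psma8, the alpha subunit of the testis, had 1.37, 2.45 and 1.74 TPM in regular-diet sham, 2.22, 3.04 and 1.57 in regular-diet CIA, 1.37 and 1.74 in high-fat sham, and 4.85, 2.17 and 2.46 in high-fat CIA. Psmb11, the beta subunit of thymic epithelium, had 1 count in 1 library (high-fat sham replicate b) and 0 in the other 10, and was not tested. The remaining 42 members passed the filter on low counts. It asks for enough counts in as many libraries as the smallest group has, whichever group they belong to.

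Averaged over both diets, CIA synovium had less Psmb7, Psmd4 and Psmd8 RNA and more Psme4 RNA than sham synovium, each by a factor under 1.5 on the TMM scale, and each by about as much as genes of similar length except Psmd8. These 4 were the members called at an adjusted p under 0.05 in edgeR's quasi-likelihood test: 1 of 42 was higher and 3 were lower. In the same comparison 23.8% of all 14892 genes tested were called (13.0% higher, 10.8% lower), and an unadjusted p under 0.05 was reached by 11 members and 39.2% of all genes. Fold changes of the members were mostly small and negative: 33 of 42 lay below 0, with a median of -0.25, against 47.2% of all genes and a median of 0.04. That direction depended on scale. On log2(TPM + 1), where the median of all genes shifts from 0.04 to 0.23, 19 of 42 members lay below 0, and after an effective-length correction 10 of 42 did. That correction ended all 4 calls (9.65% of all genes were called), with log2 fold changes of -0.04 for Psmb7, -0.10 for Psmd4, -0.25 for Psmd8 and 0.11 for Psme4. Without high-fat CIA replicate a, 14 members were called lower and 1 higher, against 25.2% of all genes called. Without regular-diet sham replicate a, regular-diet CIA replicate a or high-fat CIA replicate c 1 was called, against 13.2%, 17.1% and 20% of all genes. Without any other library of the groups of 3, 2 to 6 were, against 15% to 29.4% of all genes. Leaving out a high-fat sham library left 1 sample in that group, so only the members' median is given. It was -0.25 without replicate a and -0.26 without replicate b. In bulk tissue, fewer cells of a type and less RNA per cell cannot be told apart.

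Psmb7, which cuts after basic residues, had CPM of 182, 136 and 149 in regular-diet sham, 111, 84.8 and 120 in regular-diet CIA, 120 and 125 in high-fat sham, and 113, 72.6 and 75.7 in high-fat CIA. Every CIA library lay below every sham library of its own diet, which held for 6 members (Psmb7, Psmc2, Psmc3, Psmd4, Psmd8 and Psme2) and 9.41% of all genes. The opposite held for 0 members and 8.98% of all genes. These counts are of CPM. In TPM, Psmb7 overlapped on the regular diet, with 301, 303 and 335 in sham and 324, 212 and 322 in CIA. The log2 fold change over both diets was -0.53 ± 0.16 (SE; 6 CIA and 5 sham libraries; adjusted p = 0.0393, edgeR), where its length class had a median of -0.43.

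Psmd4, a ubiquitin receptor of the regulatory particle, had CPM of 179, 135 and 151 in regular-diet sham and 115, 114 and 122 in regular-diet CIA. On the high-fat diet it had 115 and 119 in sham and 101, 75.9 and 72.5 in CIA. In CPM it was lower in CIA on each diet without overlap, and the high-fat sham libraries lay within the range of the regular-diet CIA libraries. In TPM, Psmd4 overlapped on the regular diet. Its log2 fold change was -0.45 ± 0.13 (SE; adjusted p = 0.0309, edgeR) and its class median -0.43.

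Psmd8, a subunit of the lid that strips ubiquitin from substrates, fell furthest. Its CPM was 163, 150 and 145 in regular-diet sham, 111, 85.3 and 115 in regular-diet CIA, 140 and 156 in high-fat sham, and 115, 82.3 and 105 in high-fat CIA. In CPM all 6 CIA libraries lay below all 5 sham libraries. In TPM the groups overlapped on the regular diet, with 152, 185 and 177 in sham and 168, 117 and 166 in CIA. Psmd8 had a log2 fold change of -0.56 ± 0.13 (SE; adjusted p = 0.0171, edgeR) and stood 0.31 log2 units below its class median of -0.24, the largest distance below among the 42.

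Psme4, the single-chain activator linked to histone breakdown, moved the other way. Its CPM was 82.3, 82.4 and 85.9 in regular-diet sham, 113, 85.1 and 118 in regular-diet CIA, 69.9 and 61.9 in high-fat sham, and 90.6, 92.8 and 101 in high-fat CIA. The groups did not overlap on the high-fat diet, while regular-diet CIA replicate b lay within the range of its sham libraries. The log2 fold change was 0.43 ± 0.11 (SE; adjusted p = 0.0254, edgeR). Psme4 is the only member in the longest length class, whose median was 0.42, and it shares genomic bases with Erlec1, so reads of both genes may not be separable where strand is not stated. Of the 43 members 11 overlap another annotated gene, among them Psmb5 (Mir686), Psmb7 (Gm13586) and Psme1 (Emc9).

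**Figure D1:**
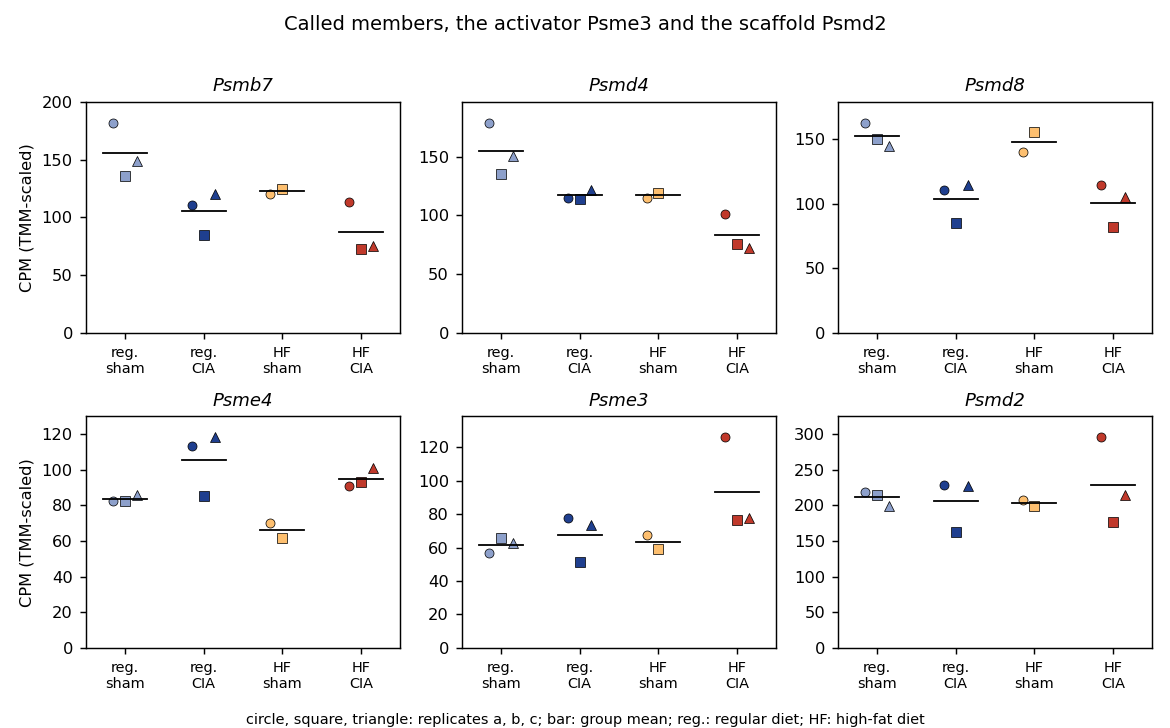
CPM (counts relative to TMM-scaled library totals) of the 4 members called in CIA against sham over both diets, with the activator Psme3 and the scaffold subunit Psmd2, in each library. Symbols are replicates and bars are group means (3 libraries a group, 2 for high-fat sham). All 6 CIA points of Psmd8 lie below its 5 sham points, and high-fat CIA replicate a (circle) has the highest Psme3 and Psmd2 values.

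Psme3, the activator of nuclear proteasomes, was not called. Its CPM was 56.7, 66.1 and 62.8 in regular-diet sham, 77.8, 51.3 and 73.6 in regular-diet CIA, 67.9 and 59.3 in high-fat sham, and 126, 76.3 and 77.6 in high-fat CIA. High-fat CIA replicate a held by far the largest value and regular-diet CIA replicate b the smallest. The log2 fold change of 0.34 ± 0.17 (SE; adjusted p = 0.169, edgeR) was 0.36 above the median of its length class. On log2(TPM + 1) Psme3 was called at 0.59 (adjusted p = 0.0387, limma). In that fit 25.9% of all genes were called, and the median of all genes was 0.23.

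By role, the beta ring was lowest on the TMM scale: all 7 constitutive beta genes had a log2 fold change below 0, from -0.53 for Psmb6 to -0.24 for Psmb2, with a median of -0.44 and 1 call (Psmb7). All 6 ATPases lay below 0 (median -0.33, from -0.38 for Psmc1 to -0.12 for Psmc4) with none called. In the alpha ring 7 of 8 lay below 0 with a median of -0.26, and Psma8, with few counts, was at 0.40 ± 0.35 (SE). Among the 11 non-ATPase subunits the median was -0.17, and the long scaffold genes Psmd1 and Psmd2, which hold the base together, were at 0.08 and 0.07. The assembly chaperones Psmd5, Psmd9 and Psmd10 were at -0.12, -0.28 and 0.01. Set against length, 28 of 42 members lay above the median of their own class and 14 below. Psmb6 (-0.10), Psmb7 (-0.10) and Psmb4 (-0.03) lay just below theirs. The members farthest below were Psmd8 (-0.31), Psmd9 (-0.27) and Psmd3 (-0.22), and those farthest above, apart from Psma8, were Psmb8 (0.62), Psmb9 (0.55), Psme3 (0.36) and Psmb10 (0.35).

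**Figure D2:**
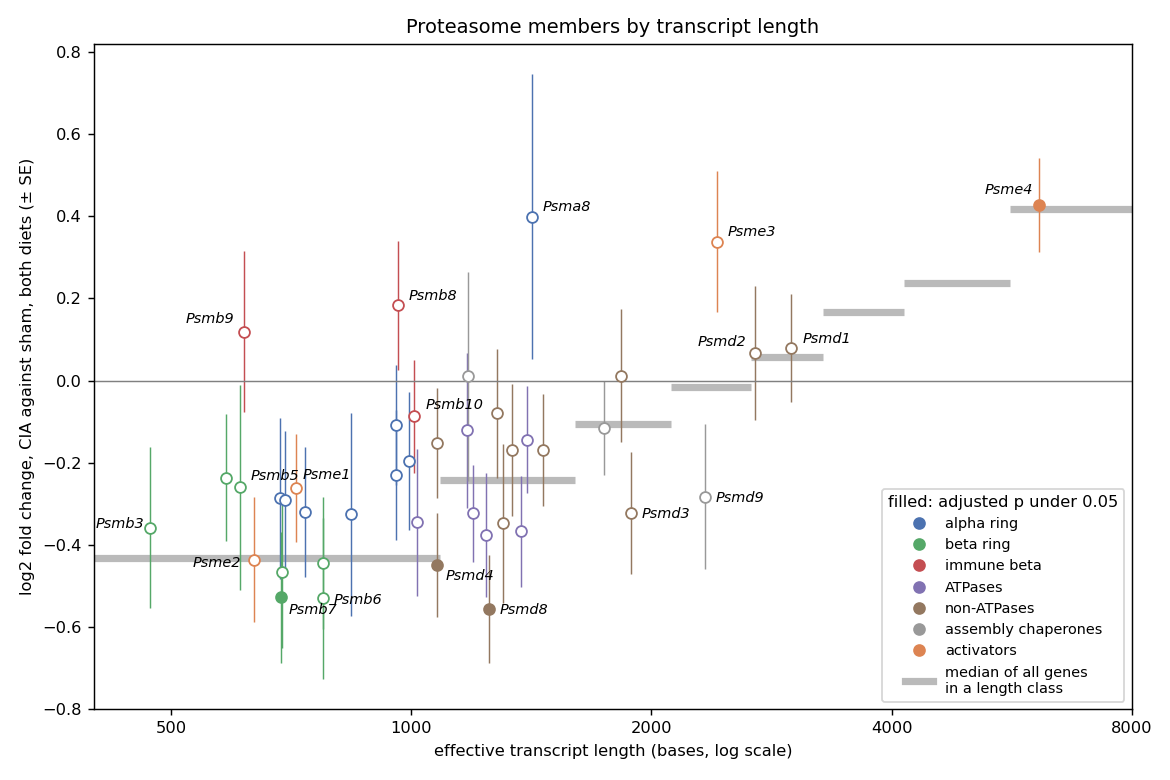
Log2 fold change (± SE) of CIA against sham over both diets for the 42 members tested, by effective transcript length in bases on a log axis. Colours are roles, filled points have an adjusted p under 0.05, and grey bars are medians of all genes in each of 8 length classes (the shortest and the longest run past the axis). Most short members lie near or above the bar at -0.43, Psme4 lies on the bar at 0.42, and Psmb8 and Psmb9 lie above 0.

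The immune beta genes Psmb8, Psmb9 and Psmb10 had log2 fold changes above those of all 7 constitutive beta genes, while the cap genes Psme1 and Psme2 had values in their range. Over both diets none of the 5 immune genes was called in edgeR with TMM scaling, and their median log2 fold change was -0.09, against -0.26 for the 37 other members tested. Psmb8 was at 0.18 ± 0.16 (SE; adjusted p = 0.417), Psmb9 at 0.12 ± 0.20 (0.686) and Psmb10 at -0.09 ± 0.14 (0.674). The cap genes were at -0.26 ± 0.13 (0.165) for Psme1 and -0.44 ± 0.15 (0.0612) for Psme2, all from edgeR's quasi-likelihood test and all in the shortest length class, whose median was -0.43. Psme2 was called lower in DESeq2, with upper-quartile scaling and without high-fat CIA replicate a (-0.51, adjusted p = 0.0385, edgeR). In the same order these fits called 32.4%, 24% and 25.2% of all genes. The value of Psme2 is uncertain, because it can share reads with the near-identical gene Psme2b on chromosome 11, which reached 8.08 CPM in 1 high-fat CIA library and was called higher in CIA (2.25 ± 0.58, SE; adjusted p = 0.0226). The sign of the immune median depended on scale: it was 0.21 on log2(TPM + 1) and 0.29 after the effective-length correction. In the latter fit Psmb8 was at 0.60 (adjusted p = 0.0592), Psmb9 at 0.68 (0.0690) and Psmb10 at 0.29 (0.0738), none of them called, while Psmb5, Psmb6 and Psmb7 were at 0.21, -0.09 and -0.04.

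Psmb8, the counterpart of Psmb5, had CPM of 123, 87.9 and 77.7 in regular-diet sham, 158, 103 and 140 in regular-diet CIA, 92.6 and 94.0 in high-fat sham, and 81.4, 95.1 and 83.8 in high-fat CIA. The highest values were those of regular-diet CIA replicates a and c. CIA and sham overlapped on each diet in CPM. In TPM, regular-diet CIA (312, 184 and 262) lay above regular-diet sham (150, 141 and 124), and the high-fat groups overlapped.

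Psmb9, the counterpart of Psmb6, had CPM of 75.7, 40.3 and 43.3 in regular-diet sham, 72.2, 61.7 and 65.1 in regular-diet CIA, 38.7 and 38.0 in high-fat sham, and 27.1, 46.5 and 35.0 in high-fat CIA. Regular-diet sham replicate a stood with the regular-diet CIA libraries. Psmb10, the counterpart of Psmb7, had 66.7, 47.0 and 44.6 in regular-diet sham, 53.4, 62.4 and 46.7 in regular-diet CIA, 44.8 and 46.8 in high-fat sham, and 42.9, 39.4 and 36.4 in high-fat CIA. In CPM its CIA libraries lay below sham on the high-fat diet and overlapped with sham on the regular diet. In TPM, regular-diet CIA lay above regular-diet sham for both genes. Psmb9 TPM was 235, 166 and 200 against 140, 101 and 112. Psmb10 TPM was 101, 106 and 83.4 against 77.1, 71.9 and 67.9. On the high-fat diet both overlapped in TPM.

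Psme1 CPM was 153, 102 and 115 in regular-diet sham, 105, 131 and 102 in regular-diet CIA, 100 and 102 in high-fat sham, and 76.3, 76.8 and 76.5 in high-fat CIA. In CPM the 3 high-fat CIA libraries were nearly equal and lower than the other 8. In TPM they had 186, 216 and 222, and regular-diet sham replicate b had 218. Psme1 TPM in regular-diet CIA (280, 316 and 257) lay above regular-diet sham (248, 218 and 247). Psme2 CPM was 199, 125 and 130 in regular-diet sham, 113, 120 and 105 in regular-diet CIA, 110 and 120 in high-fat sham, and 99.7, 76.6 and 76.0 in high-fat CIA, lower in CIA on each diet without overlap.

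The constitutive counterparts were spread widely. Psmb5 CPM was 123, 76.5 and 90.2 in regular-diet sham, 53.4, 94.8 and 56.4 in regular-diet CIA, 69.7 and 71.2 in high-fat sham, and 107, 50.9 and 50.9 in high-fat CIA. The CIA libraries with high Psmb5 were those that stood apart, regular-diet replicate b and high-fat replicate a. Psmb6 showed the same pair: CPM was 178, 106 and 117 in regular-diet sham, 70.7, 102 and 82.4 in regular-diet CIA, 88.9 and 94.9 in high-fat sham, and 93.6, 53.0 and 60.8 in high-fat CIA. Neither gene was called over both diets, at -0.26 ± 0.25 (SE; adjusted p = 0.470, edgeR) for Psmb5 and -0.53 ± 0.20 (0.0737) for Psmb6.

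**Figure D3:**
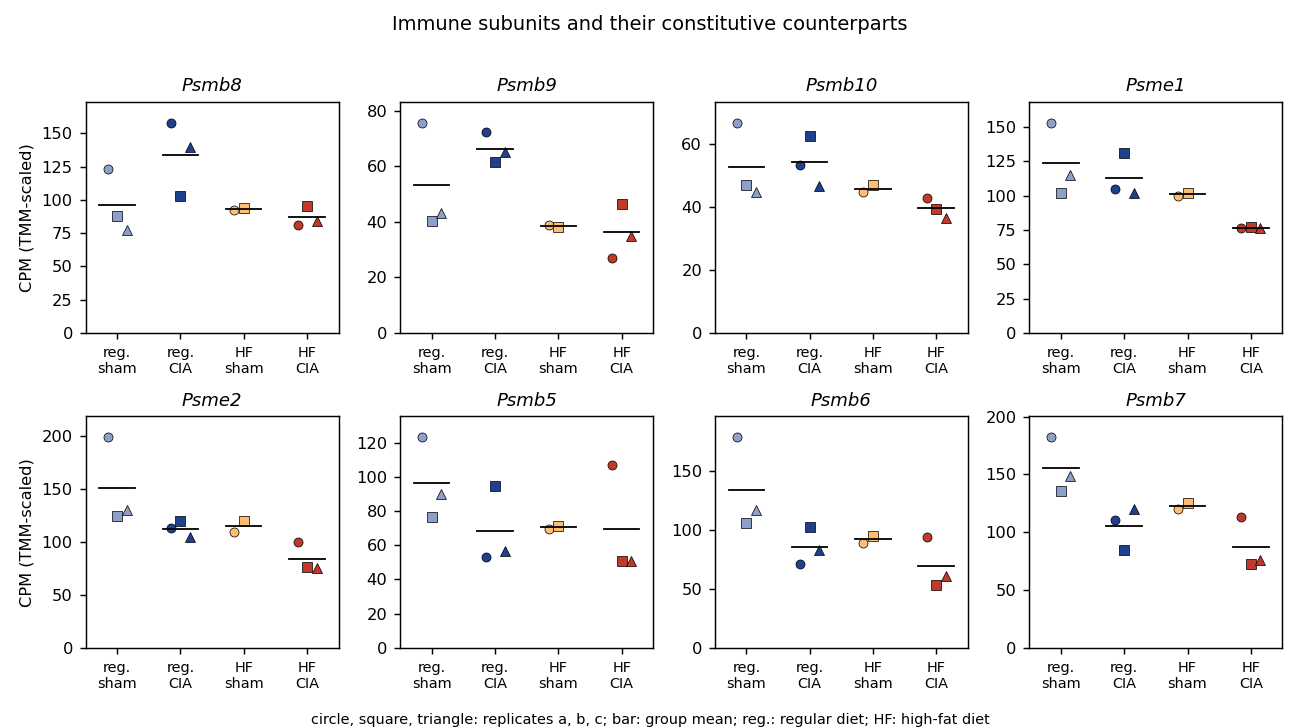
CPM (counts relative to TMM-scaled library totals) of the 5 immune genes and of Psmb5, Psmb6 and Psmb7 in each library. Symbols are replicates, bars are group means (3 libraries a group, 2 for high-fat sham) and each axis starts at 0. The high-fat CIA points of all 5 immune genes lie below the regular-diet CIA points.

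Because each immune catalytic subunit replaces a particular constitutive subunit, their ratio within a library was taken on the TPM scale. The immune genes supplied 31.4%, 30.7% and 27.6% of the catalytic subunit TPM in regular-diet sham and 49.3%, 39.2% and 44.5% in regular-diet CIA. On the high-fat diet the shares were 33.5% and 32.8% in sham and 27.2%, 45.3% and 39.9% in CIA. In 5 of 6 CIA libraries the share was above every sham library, and in high-fat CIA replicate a it was below every sham library. All 6 genes lie in the shortest length class but differ in length. Psmb8 and Psmb10 (962 and 1009 bases) are longer than Psmb5 and Psmb7 (610 and 687), and Psmb9 (616) is shorter than Psmb6 (774). The part of length in the shares and ratios was not tested.

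The ratio of Psmb10 to Psmb7 was 0.256, 0.237 and 0.203 in regular-diet sham, 0.311, 0.503 and 0.259 in regular-diet CIA, 0.253 and 0.254 in high-fat sham, and 0.256, 0.360 and 0.329 in high-fat CIA. Every CIA library lay above every sham library of its own diet, the lowest by little. Over both diets the ratio was 1.35-fold higher in CIA (log2 difference 0.43; two-sided exact permutation p = 0.02 over 200 arrangements of labels within diets, adjusted p = 0.06 over 3 ratios), which missed the threshold after adjustment.

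The ratio of Psmb9 to Psmb6 was 0.526, 0.476 and 0.479 in regular-diet sham, 1.34, 0.727 and 1.04 in regular-diet CIA, 0.547 and 0.503 in high-fat sham, and 0.376, 1.14 and 0.722 in high-fat CIA. It was 1.62-fold higher in CIA (log2 difference 0.70; exact permutation p = 0.07, adjusted p = 0.105), with 5 of 6 CIA libraries above all sham libraries. The ratio of Psmb8 to Psmb5 was 0.639, 0.732 and 0.541 in regular-diet sham, 1.86, 0.685 and 1.57 in regular-diet CIA, 0.842 and 0.839 in high-fat sham, and 0.482, 1.18 and 1.05 in high-fat CIA. Here 4 of 6 CIA libraries lay above all sham libraries (1.41-fold; log2 difference 0.50; exact permutation p = 0.195, adjusted p = 0.195). Without high-fat CIA replicate a all 3 ratios passed. The adjusted exact permutation p was 0.025 for Psmb9 to Psmb6 (log2 difference 0.91), 0.025 for Psmb10 to Psmb7 (0.51) and 0.0333 for Psmb8 to Psmb5 (0.70), where 120 arrangements were possible. The outcome thus rests on 1 library, whose Psmb5 TPM of 306 was the highest of the 11 and whose Psmb9 TPM of 79.3 was the lowest.

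**Figure D4:**
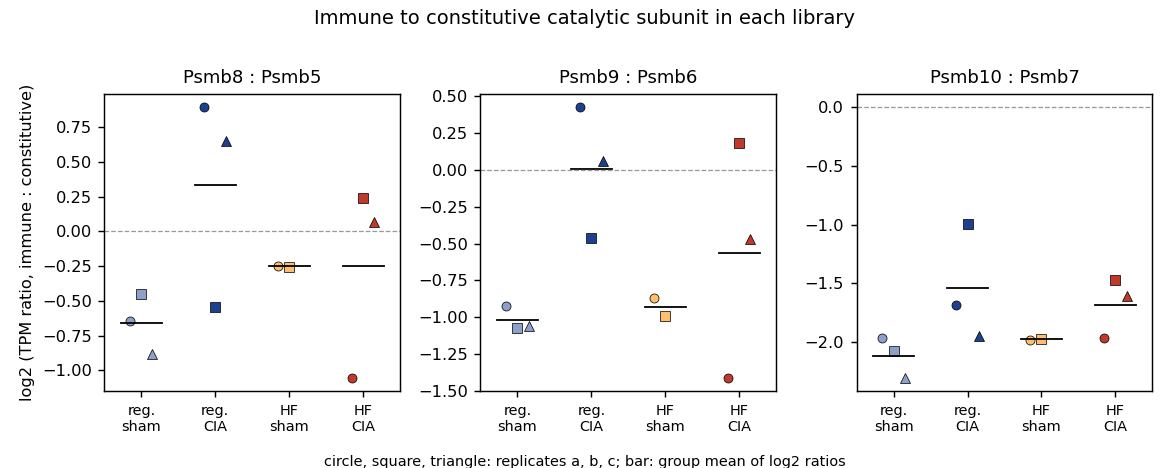
Log2 ratio of the TPM of each immune catalytic subunit to that of the constitutive subunit it replaces, in each library. Symbols are replicates, bars are group means of the log2 ratios (3 libraries a group, 2 for high-fat sham) and the dashed line marks equal TPM. High-fat CIA replicate a has the lowest Psmb8 to Psmb5 and Psmb9 to Psmb6 ratios of all libraries, while its Psmb10 to Psmb7 ratio lies just above high-fat sham.

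Within the regular diet no member was called in CIA against sham in edgeR, where 0.0269% of all genes were, and 7 members had an unadjusted p under 0.05, against 17.3% of all genes. DESeq2 called 1 member (Psmd8, lower) and 5.62% of all genes. In this comparison 17 members, among the immune genes only Psme2, lay lower in CIA without overlap in CPM and none higher. The shares of all genes were 13.0% and 12.2%. In TPM, Psmb8, Psmb9, Psmb10, Psme1, Psmc6, Psmd6 and Psme4 lay higher in CIA without overlap and Psmb4 lower. Psme2 overlapped in TPM, and the share of all genes was not counted on that scale. The median log2 fold change was 0.04 for the 5 immune genes and -0.32 for the other 37. In the same order, the median distance from the members' own length class was 0.51, with all 5 above, and -0.03. After the effective-length correction the medians of the immune genes and the others were 0.43 and 0.02, and on log2(TPM + 1) they were 0.41 and 0.04. Psmb8 (0.47 ± 0.21, SE) and Psmb9 (0.32 ± 0.26, SE) had the highest values of the immune genes.

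Within the high-fat diet none was called either, where 10.8% of all genes were, and 3 members had an unadjusted p under 0.05, against 30.8% of all genes. DESeq2 called Psmd8 lower and Psme4 higher, with 22.3% of all genes called. Here 9 members lay lower without overlap (27.7% of all genes did) and 2 higher, Psme3 and Psme4 (27.5%). The median was -0.21 for the immune genes and -0.13 for the others. Both signs turned with the scale: the medians were 0.16 and 0.14 after the effective-length correction, and 0.012 and 0.06 on log2(TPM + 1). The difference between the CIA effects on both diets (interaction) was called for 0 members, as for 0.0% of all genes. No member reached an unadjusted p under 0.05 in it, against 4.26% of all genes. DESeq2 called 0 members and 0.141% of all genes in the interaction. For Psmb8 it was -0.58 ± 0.31 (SE; adjusted p = 0.989, edgeR).

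Diet was then compared within CIA mice. The 5 immune genes were lower in high-fat than in regular-diet CIA, each without overlap in CPM, whereas of the 37 other members this held for Psmd4 alone, against 13.5% of all genes. No member was higher without overlap (8.66% of all genes were). None was called in edgeR (3.95% of all genes were), so the differences are given as values: Psmb9 was at -0.87 ± 0.26 (SE; adjusted p = 0.0835), Psmb8 at -0.62 ± 0.21 (0.114), Psme1 at -0.56 ± 0.18 (0.0947), Psmb10 at -0.45 ± 0.18 (0.172) and Psme2 at -0.42 ± 0.20 (0.242). The unadjusted p was under 0.05 for 4 of the 5 immune genes and for 1 of the other 37, against 23.8% of all genes. The median of the immune genes was -0.56, that of the other members -0.01 and that of all genes -0.03, and all 5 lay below the median of their length class. After the effective-length correction all 5 stayed below 0, from -0.65 for Psmb9 to -0.25 for Psme2, with none called. DESeq2 called Psmb9 and Psme1, with 13.5% of all genes. Psmb8 was the member called without regular-diet CIA replicate b (-0.78, adjusted p = 0.0207, edgeR), where 21.8% of all genes were. On the TPM scale Psmb8 overlapped, with 312, 184 and 262 in regular-diet CIA and 148, 199 and 181 in high-fat CIA. This comparison shares its libraries with those of CIA against sham.

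In sham mice the diets differed less clearly. No member was called (0.0% of all genes were) and none had an unadjusted p under 0.05 (7.82% of all genes did). High-fat sham lay lower without overlap for 17 members, Psmb9, Psme1 and Psme2 among them, and higher for 2, Psmd7 and Psmd14, against 22.1% and 19.7% of all genes. The medians were -0.29 for the immune genes and -0.11 for the other members. They were -0.05 and -0.02 after the effective-length correction, and -0.02 and 0.14 on log2(TPM + 1), where the sign of the other members turned.

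**Figure D5:**
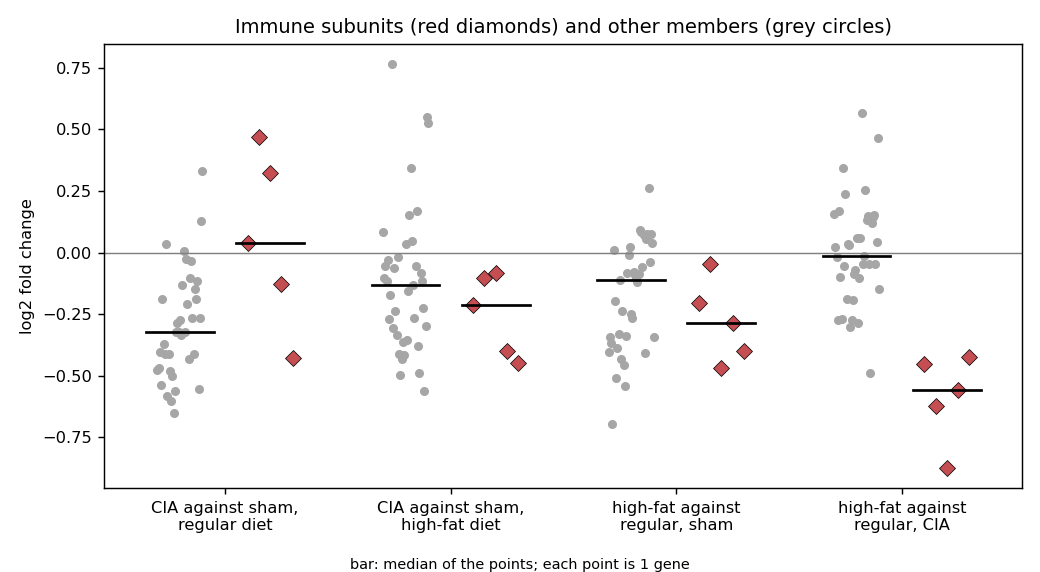
Log2 fold changes of the 5 immune genes (red diamonds) and the 37 other members tested (grey circles) in 4 comparisons, 1 point per gene, with bars at the medians. The widest gap between the medians is in high-fat against regular diet among CIA mice, at -0.56 and -0.01.

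Over the 11 libraries, the immune genes varied together more than with the rest in the median, while single pairs overlapped. The median Pearson r of log2 CPM was 0.72 over the 10 pairs of immune genes (from 0.27 to 0.91). It was 0.19 over 180 pairs of an immune gene with another member (from -0.76 to 0.95), leaving out Psma8 and Psmb11. Pairs among the other members had a median of 0.66. Psme1 and Psme2 had r = 0.90. These values describe 11 libraries that share depth, length trend and tissue makeup. The genes whose log2 CPM was most like the mean of the 5 immune genes, out of all tested, were Lpar6 (r = 0.94), Mrnip (0.91), Zfp386 (0.91), Trim24 (0.91) and Mpp4 (0.90).

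Interferon-gamma signalling, which induces the immunoproteasome, was examined beside the members. Over both diets 13.0% of all genes were called higher and 10.8% lower, against which the counts of each gene list are to be read. Of 8 tested genes of this pathway 4 were called, all higher: Nlrc5, the transactivator of MHC class I genes, by 1.28 ± 0.21 (log2, SE; adjusted p = 0.00692, edgeR), Irf8 by 1.31 ± 0.25 (0.00909) and Jak2 by 1.00 ± 0.20 (0.0108), with Jak1 as the other. The cytokine gene Ifng itself had at most 0.262 CPM and was not tested. After the effective-length correction 4 were again called, with Irf1 in place of Jak1, against 9.65% of all genes. Of 11 genes of MHC class I peptide loading only Tap1, a chain of the peptide transporter, was called (0.99 ± 0.15; adjusted p = 0.00641). Tap1 CPM was 69.3, 65.7 and 58.6 in regular-diet sham, 182, 133 and 120 in regular-diet CIA, 54.4 and 57.8 in high-fat sham, and 79.3, 120 and 95.0 in high-fat CIA, without overlap on either diet. Tap1 and Psmb9 start 225 bases apart and face away from each other, yet Psmb9 was at 0.12 and Tap1 at 0.99. The difference between these genes was not tested. Tap1, at 2687 bases of effective length, is the longer, and after the effective-length correction the values were 0.68 and 1.01.

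Among 12 tested assembly factors and partners, Adrm1, a ubiquitin receptor that docks on the regulatory particle, was called lower (-0.42 ± 0.11; adjusted p = 0.0230, edgeR), and no longer after the effective-length correction (-0.10). Of 6 regulators of proteasome transcription 2 were called, both higher: Ddi2, the protease that activates NFE2L1, at 1.77 ± 0.28 (adjusted p = 0.00663) and Stat3 at 0.59 ± 0.12 (0.0122). After the effective-length correction Ddi2 was still called (1.70) and Stat3 was not (0.41, adjusted p = 0.0597). Of 9 genes of ubiquitin supply Uba6, a ubiquitin-activating enzyme, was called higher (1.34 ± 0.28; 0.0118).

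Cell type markers moved with the groups. The summed CPM of 6 leukocyte markers was 126 to 168 in regular-diet sham, 210 to 701 in regular-diet CIA, 177 to 339 in high-fat sham and 560 to 1255 in high-fat CIA. For 6 macrophage markers the ranges were 512 to 846, 803 to 1278, 1125 to 1516 and 2097 to 3239 in the same order. The group with the most leukocyte marker RNA, high-fat CIA, had the lowest mean CPM of each of the 5 immune genes. On the TPM scale this held for Psme1 and Psme2 only: mean TPM in regular-diet sham, high-fat sham and high-fat CIA was 138, 161 and 176 for Psmb8, 117, 103 and 118 for Psmb9, and 72.3, 75.3 and 76.0 for Psmb10. T and NK cell markers (7 of 8 found) summed to 3.34 to 26.0 over all libraries. Neutrophil markers (5 genes) summed to 41.0 to 162, 256 to 1038, 23.6 to 1122 and 832 to 5020, and erythroid markers (5 genes) to 2670 to 7183, 294 to 1492, 1284 to 5938 and 136 to 1585. Skeletal muscle markers reached 757 in 1 regular-diet sham library and at most 143 in the others. Adipocyte markers (5 genes) summed to 4544 to 5172, 1262 to 4577, 3573 to 4151 and 262 to 1083. All 9 synovial fibroblast markers were found, at a summed CPM of 6168 to 23004 over the libraries, and no marker found in the table was at 0 in all libraries of a group. The part of cell makeup in the proteasome results was not tested.

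The authors' deposited table, made with DESeq2, calls no member at a q-value under 0.05 in 3 comparisons. These are regular-diet CIA against sham (445 of the 18804 genes called), high-fat against regular-diet CIA (695) and high-fat against regular-diet sham (1372). For high-fat CIA against high-fat sham the authors' deposited table calls 3488 genes. Among the members it calls only Psme4 higher (log2 fold change 0.53, q = 0.0247) and Psme1 lower (-0.39, q = 0.0256).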

How the data were processed

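Per the labels' protocols, Trizol was used for RNA extraction and the sequencing company's kit for libraries. The authors deposited 1 table with expected counts, FPKM and TPM per gene and library, and log2 fold changes with DESeq2 q-values (adjusted p-values), per the file headers. FPKM is scaled by length and depth and TPM to an equal total. Per the submitters' processing notes, the genome build was GRCm38.p6 and the tools were RSEM 1.2.12, Bowtie2 2.2.5 and DESeq2 1.4.5. Of the expected counts 11.98% were not whole (tolerance 0.001), and counts were rounded. Strandedness is not given in the sources used here.

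Of the table's 18804 genes (1 further line was empty), filterByExpr kept 14892. After TMM scaling, edgeR 4.0.16 was fitted to them (glmQLFit, robust, 1 mean per group, all 11 libraries). Calls have a Benjamini-Hochberg adjusted p under 0.05 over all 14892 genes. CIA was compared with sham within each diet and as the mean over diets, the diets were compared within CIA and within sham mice, and the interaction was tested. The SE follows from the fold change and its F statistic. CPM uses TMM-scaled totals, and log2 CPM a prior count of 2. TPM served levels and ratios between genes. Ratios were compared by an exact permutation test, two-sided. The members and gene lists were chosen with earlier results of these data known. From the list of interferon-gamma signalling 1 gene is not reported here.

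Effective length was the median over libraries of count divided by FPKM and total. Alternatives were DESeq2 1.42.0, limma 3.58.1 (voom, and on log2(FPKM + 1) and log2(FPKM + 0.1)), RLE and upper-quartile scaling, other filters, a replicate block, fits restricted to the compared groups, and each library left out in turn. After seeing the data, limma on log2(TPM + 1) and edgeR with offsets that remove each library's smooth trend with effective length were added. Scripts were tested on simulated data. R 4.3.3, Python 3.11.15, pandas 2.3.3, numpy 2.4.6, scipy 1.17.1 and matplotlib 3.10.9 were used. The table's own coordinates do not follow GRCm38.p6, so positions are those of RefSeq, matched by gene ID for all 43 members. Promoters were in RefSeq's table for 36 of the 43. Values for every library are given for the immune genes, their counterparts, every member called in edgeR and the members with the highest or lowest TPM.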

Additional observations from a re-analysis of the deposited data

How the results depend on the processing

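For CIA against sham over both diets, the count of members called was 4 in the fit reported, where 23.8% of all genes were called. The count was 9 in DESeq2 (32.4%) and 7 with upper-quartile scaling (24%). With the replicate block it was 2 (Psmb7 and Psmd8), where about 18% of all genes were called. On log2(TPM + 1) it was 2 (Psme3 and Psme4, both higher), against 25.9% of all genes. After the effective-length correction it was 0 (9.65%). Leaving out 1 library of a group of 3 gave 1 to 15. It was 15 without high-fat CIA replicate a (25.2%), 6 without regular-diet CIA replicate b (29.4%) and 3 without regular-diet CIA replicate c (22.8%). It was 2 without regular-diet sham replicate b (15%) or c (16.4%) or high-fat CIA replicate b (18%). It was 1 without regular-diet sham replicate a (13.2%), regular-diet CIA replicate a (17.1%) or high-fat CIA replicate c (20%). Without either high-fat sham library the lone sample is assumed to vary like the other groups, so calls are not counted. The members' median log2 fold change was then -0.25 (replicate a left out) or -0.26 (replicate b left out). Over all genes, 1929 were higher and 1613 lower, and on log2(TPM + 1) 3187 and 666. For CIA against sham, DESeq2 called 1 on the regular diet (5.62% of all genes) and 2 on the high-fat diet (22.3%). On the high-fat diet, leaving out 1 library of a group of 3 gave 0 to 2. It was 2 without regular-diet CIA replicate b, where 25.2% of all genes were called. For high-fat against regular diet in CIA, DESeq2 called 2 (13.5% of all genes) and leaving out 1 library of a group of 3 gave 0 to 1. It was 1 without regular-diet CIA replicate b (21.8%). The median of the immune genes (-0.09) was 0.21 on log2(TPM + 1) and 0.29 after the effective-length correction. Signs reversed for Psmb10 (0.21 and 0.29 in these fits), Psme1 (0.041 and 0.22), and, after the effective-length correction, Psme2 (0.074) and Psmb5 (0.21). Without 1 library, log2 differences were 0.36 to 0.72 for the ratio of Psmb8 to Psmb5, 0.51 to 0.91 for Psmb9 to Psmb6 and 0.30 to 0.54 for Psmb10 to Psmb7, whose exact permutation p was 0.07 (0.39) without regular-diet sham replicate c. The labels do not say whether the replicate letters pair samples. Deviations of same-lettered libraries had r from -0.43 to 0.46, over 0.1 in 5 of 15 pairs, and 3 of 11 libraries correlated best with their own letter. With 2 or 3 libraries per group these values cannot decide it. The causes of these shifts were not tested. Precision is limited by 2 or 3 libraries per group.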
